A study of Homo sapiens with 12 samples.

Results

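The genes described here build the keratin filaments and the cell-cell junctions of epithelial cells. They are 47 genes of a list of symbols, matched to the Ensembl identifiers of the count table, out of 58302 genes in all. The list holds 6 adherens junction and cell adhesion genes, 13 tight junction genes, 12 desmosome and plaque genes, 12 keratins and 4 regulators of epithelial transcription or splicing. Of the 47, 36 had enough counts to be tested, among 18035 tested genes. RNA was sequenced from NCI-H226, a human mesothelioma cell line (NF2-null, per the labels) that is sensitive to the TEAD inhibitor GNE-7883, and from its derivative NCI-H226_CL3, which was grown in stepwise rising TEAD inhibitor, from 0.25 to 3 µM, until resistant. The 4 groups, each of 3 libraries, were sensitive cells in DMSO (the solvent), sensitive cells in GNE-7883, resistant cells in DMSO and resistant cells in GNE-7883. All 4 groups carry the NF2 loss of the parental line, the resistant line is a single derivative, and the sources used here state neither the dose nor the length of the final incubation. The series concerns how cells acquire resistance to TEAD inhibition through the Hippo and MAPK pathways.

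Keratins are intermediate filament proteins that assemble as pairs of a type I and a type II chain, and the pair KRT8 and KRT18 marks simple epithelia and mesothelium. Adherens junctions join neighbouring cells through cadherins bound to catenins, tight junctions seal the gap between cells through claudins and occludin, and desmosomes anchor keratin filaments to the membrane through desmosomal cadherins, plakoglobin, plakophilins and plakins. GNE-7883 acts on TEAD, through which the coactivators YAP and TAZ reach DNA and which NF2 loss leaves active in many mesotheliomas.

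Levels are given as CPM (counts relative to library size, corrected for library composition by TMM), with 3 values standing for replicates 1, 2 and 3 in that order, and group means with SD, n = 3. Libraries held 31878934 to 46962645 counts, and a count of 0 therefore allows a level of up to 3 counts, or 0.0639 to 0.0941 CPM. Sensitive DMSO replicate 2 stood apart from the other 2 of that group. Against replicates 1 and 3, its counts gave a chi-square per degree of freedom of 39.9 and 46.0, compared with 3.35 between replicates 1 and 3 and 3.53 to 11.5 within the other groups. Among the junction and keratin genes, it was the highest library of its group for KRT7, KRT8, KRT18, KRT19 and PKP3, among others. The others included KRT4, KRT5, KRT80, CLDN11, CLDN15, TJP3 and JUP. It was the lowest for CDH1, OCLN, TJP1, DSP, DSC3 and DSG2, among others, which included CGN, CLDN1, DSC2, PPL and ESRP2. Values without this library are given where they bear on a result.

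The labels name the tissue as lung epithelium and the cell type as mesothelioma. All 12 listed mesothelial markers were tested, with a summed level of 7055 to 8353 CPM in sensitive DMSO and 3289 to 3719 CPM in resistant DMSO. The largest term of that sum is KRT7, itself one of the keratins described here (4205 ± 583 and 2039 ± 172 CPM), and HP, another of the 12, lay at 0.0174 ± 0.0158 CPM in resistant DMSO, under the level that a count of 0 allows. Of 8 alveolar and airway markers, 3 passed the filter, with a summed level of at most 6.47 CPM, and of 6 blood cell markers none passed, with a summed level of at most 0.219 CPM and 2 genes, CD3E and CD68, at 0 in every library.

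After GNE-7883, sensitive cells held fewer transcripts of the simple keratins KRT7, KRT8 and KRT18, of KRT4 and KRT5, of the tight junction genes CGN and OCLN, of the plakophilins and of E-cadherin (CDH1), while CLDN1, TJP3, JUP and DSC3 rose. Of the 36 tested genes, 8 rose and 18 fell in sensitive cells, at a median log2 fold change of -0.24, where 58.1% of all tested genes were called, 29.8% higher and 28.4% lower, at a median of 0.02. The same treatment moved 9 of the 36 in resistant cells, 8 higher and 1 lower, at a median of 0.05, where 9.22% of all tested genes were called, 5.25% higher and 3.97% lower. Genes are called, and described as rising or falling, where the adjusted p lies below 0.05 in edgeR's quasi-likelihood test with Benjamini-Hochberg adjustment over all tested genes. Without sensitive DMSO replicate 2, 37 were tested, and 9 rose and 20 fell in sensitive cells, where 57.8% of all tested genes were then called. In resistant cells 11 rose and 2 fell without it, where the share of all tested genes called was 16.7%, with 8.98% higher and 7.69% lower. The 3 treated and 3 DMSO libraries did not overlap for 28 of the 36 in sensitive cells (61.6% of all tested genes) and for 14 in resistant cells (30.9%).

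Most of these genes were lower in resistant cells. In DMSO, 4 of the 36 were higher and 28 lower than in sensitive cells, at a median log2 fold change of -0.87, where 48.7% of all tested genes were called, 24.2% higher and 24.4% lower. In GNE-7883, 6 were higher and 22 lower, at a median of -0.46, where 61.9% were called, 30.7% higher and 31.1% lower. The response to GNE-7883 differed between the lines for 23 of the 36, more positive in resistant cells for 18 and more negative for 5, where 35.7% of all tested genes differed, 19% more positive and 16.7% more negative. Without sensitive DMSO replicate 2, these counts were 4 higher and 28 lower in DMSO, 8 higher and 23 lower in GNE-7883, and 21 more positive and 5 more negative for the difference of responses, where 49.3%, 66.4% and 38.7% of all tested genes were then called. Libraries of the lines did not overlap for 31 of the 36 in DMSO (53.9% of all tested genes) and for 30 in GNE-7883 (69.5%). The comparisons share groups of libraries, so their counts are not independent of each other.

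**Figure D1:**
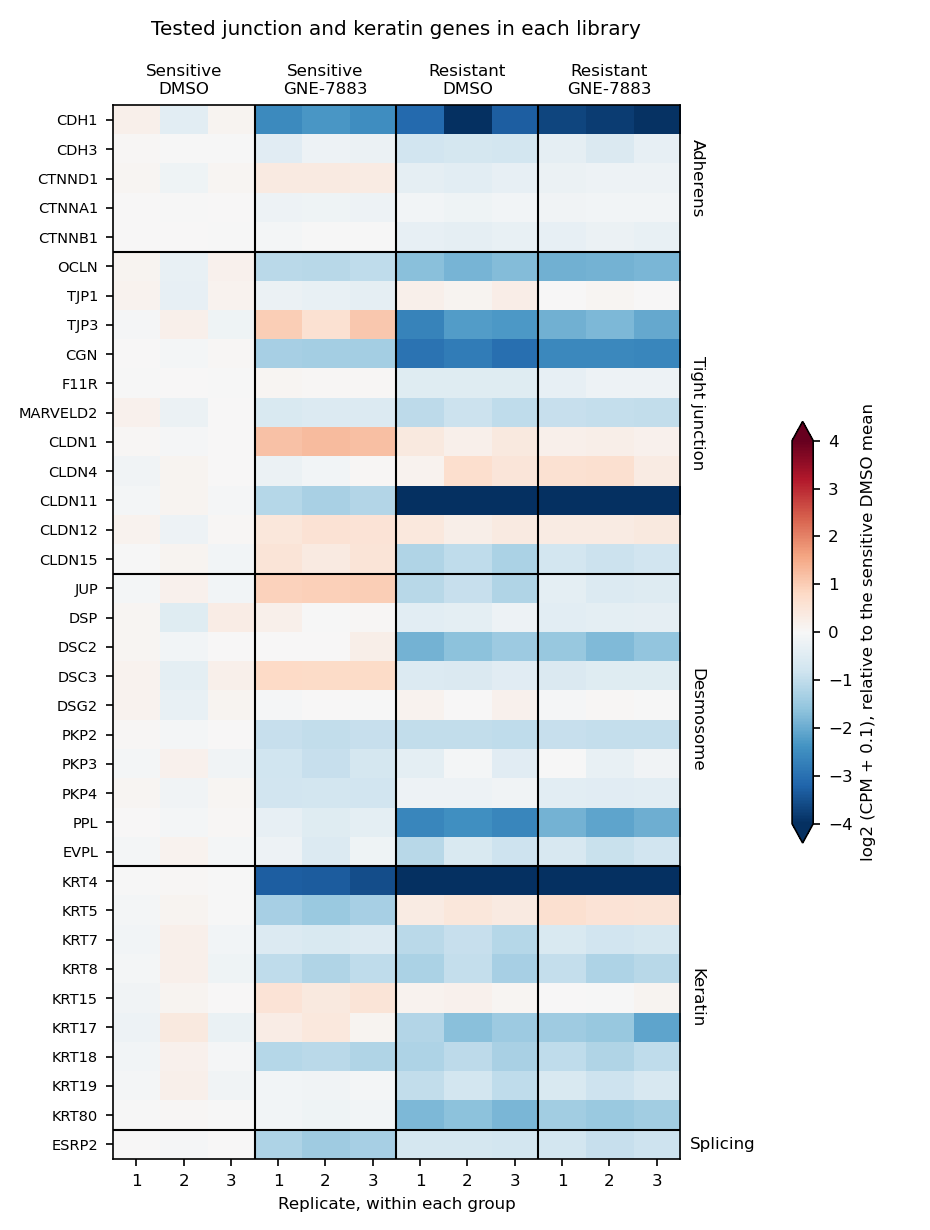
Level of each of the 36 tested genes in each of the 12 libraries, as log2 of CPM plus 0.1 relative to the mean of the sensitive DMSO libraries, with colours limited at 4 in either direction. Rows are grouped by class and columns by group and replicate, and KRT4, CDH1 and CLDN11 are the darkest rows in the resistant libraries.

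**Figure D2:**
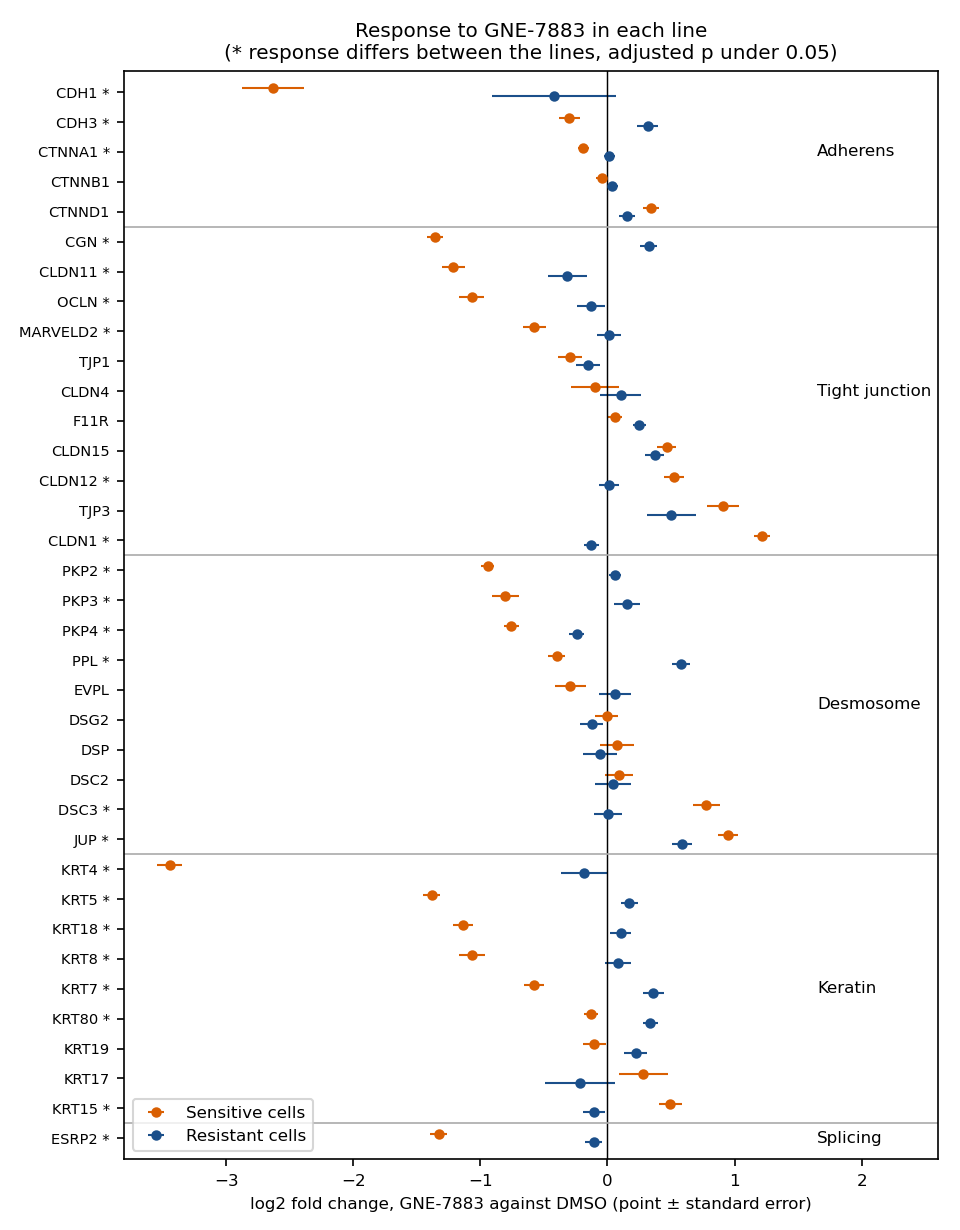
Fold change with GNE-7883 on a log2 scale (horizontal axis) for each tested gene (rows, ordered within class by the sensitive response), with points and standard errors for sensitive and resistant cells. Sensitive points range from -3.45 for KRT4 to 1.22 for CLDN1, while resistant points range from -0.42 for CDH1 to 0.59 for JUP.

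A further 11 of the 47 genes were too low to test, and their counts are sums over all 12 libraries. They were the adhesion molecule EPCAM (10 counts), the claudins CLDN3 (2) and CLDN7 (14), the desmosomal cadherin DSG3 (32), the plakophilin PKP1 (19), the keratins KRT6A (22), KRT14 (85) and KRT81 (56), and the regulators ESRP1 (55), OVOL1 (8) and GRHL2 (0). EPCAM, CLDN3 and CLDN7, which are common to many glandular epithelia, were close to absent in each group, at no more than 3 counts in any library. GRHL2, a transcription factor of epithelial genes, had no count in any library. No change can be read from these 11 at this depth.

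Promoter windows were available for 25 of the 47 genes (RefSeq, GRCh38.p14, from 250 bases before to 50 after the annotated start). They were searched on both strands for GGAATG, the core bound by TEAD, for TGANTCA, the site of the AP-1 factors, and for CACCTG, an E-box bound by SNAI and ZEB repressors; no match overlapped another. GGAATG was found in 2 of the 25 windows (8%, against 14% of 35116 windows of the same length), TGANTCA in 2 (8%, against 7.71%) and CACCTG in 7 (28%, against 20.6%). The windows with GGAATG belong to KRT8, which fell in sensitive cells, and to CLDN15, which rose. They are printed with those of KRT5, which holds an E-box, and KRT4, which holds none of the motifs and fell most, 5′ to 3′ on the gene's strand with motifs in capitals. A match describes letters only, and binding was not measured here.

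KRT8 (chr12:52926420-52926719, minus strand): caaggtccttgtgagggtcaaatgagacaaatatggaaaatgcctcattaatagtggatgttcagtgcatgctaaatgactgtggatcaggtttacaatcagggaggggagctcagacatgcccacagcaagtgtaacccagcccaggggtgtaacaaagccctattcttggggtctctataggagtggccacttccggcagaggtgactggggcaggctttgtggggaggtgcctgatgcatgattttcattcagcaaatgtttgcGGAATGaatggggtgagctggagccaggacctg

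CLDN15 (chr7:101237753-101238052, minus strand): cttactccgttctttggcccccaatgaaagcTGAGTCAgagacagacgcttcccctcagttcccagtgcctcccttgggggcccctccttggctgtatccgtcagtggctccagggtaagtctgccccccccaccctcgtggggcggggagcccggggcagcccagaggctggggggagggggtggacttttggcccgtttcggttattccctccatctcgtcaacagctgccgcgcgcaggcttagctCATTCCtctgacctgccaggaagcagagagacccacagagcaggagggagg

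KRT5 (chr12:52520345-52520644, minus strand): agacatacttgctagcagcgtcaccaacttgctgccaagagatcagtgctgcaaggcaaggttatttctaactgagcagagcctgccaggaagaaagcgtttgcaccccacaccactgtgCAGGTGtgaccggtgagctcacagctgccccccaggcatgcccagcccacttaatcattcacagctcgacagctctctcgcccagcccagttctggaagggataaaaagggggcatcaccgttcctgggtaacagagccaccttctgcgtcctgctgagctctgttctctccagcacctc

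KRT4 (chr12:52814067-52814366, minus strand): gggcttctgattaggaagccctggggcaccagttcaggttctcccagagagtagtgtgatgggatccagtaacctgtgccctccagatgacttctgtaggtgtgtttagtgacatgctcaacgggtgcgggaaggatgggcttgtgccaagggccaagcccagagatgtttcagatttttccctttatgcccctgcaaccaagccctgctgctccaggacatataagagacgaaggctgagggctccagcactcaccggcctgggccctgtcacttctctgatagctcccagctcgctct

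In KRT8 the capitals mark GGAATG, starting at base 18 of the annotated transcript. This is an upstream start, held by 1 of 17 KRT8 transcripts in GENCODE release 29, and which start the cells used cannot be read from the gene counts. In CLDN15 they mark TGAGTCA, 219 bases before the start, and CATTCC, which is GGAATG on the other strand and begins 1 base before it, in a window that holds the starts of 5 of 8 transcripts. In KRT5 they mark CAGGTG, the E-box on the other strand, 130 bases before the start, and 4 of 11 transcripts start in that window. Other members with an E-box were OCLN, TJP1, CLDN3, DSP, DSC2 and DSG2, and CLDN4 held TGATTCA and TGACTCA. Of these, 0 of 5 OCLN and 0 of 12 TJP1 transcripts start in their windows, and CLDN3 was too low to test.

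Keratin transcripts made up 1.32% ± 0.170 (SD, n = 3) of all counts in DMSO and 0.821% ± 0.0135 with GNE-7883 in the sensitive line, against 0.657% ± 0.0654 and 0.763% ± 0.0434 in the resistant line. KRT7, KRT8, KRT18 and KRT19 accounted for 95.9% to 97.1% of them in every library. On the authors' RPKM scale, which divides by gene length, KRT7 was the most abundant of the 36 tested genes in sensitive DMSO at 2337 ± 340, followed by KRT18 at 1911 ± 216, KRT19 at 1684 ± 227 and KRT8 at 554 ± 78.0. In sensitive GNE-7883, KRT7 and KRT19 stood within 1 SD of each other, at 1563 ± 43.4 and 1567 ± 29.7 RPKM, and KRT18 was at 868 ± 39.4. In resistant cells KRT19 stood above KRT18, at 943 ± 106 against 883 ± 79.7 RPKM in DMSO, a gap within 1 SD, and at 1101 ± 72.2 against 949 ± 66.3 in GNE-7883.

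Of the 9 tested keratins, 1 rose and 5 fell with GNE-7883 in sensitive cells, and 2 rose and none fell in resistant cells. All-gene shares were 29.8% risen and 28.4% fallen in sensitive cells, and 5.25% and 3.97% in resistant cells. KRT7 is a type II keratin of simple epithelium and mesothelium (ENSG00000135480, chr12:52232520-52252186, plus strand). KRT7 read 3865, 4878 and 3873 CPM in DMSO and 2873, 2729 and 2851 with GNE-7883 in the sensitive line, against 1975, 2233 and 1909 in DMSO and 2750, 2500 and 2609 with GNE-7883 in the resistant line. All 3 treated sensitive libraries lay below the 3 DMSO libraries, and all 3 treated resistant libraries lay above theirs, and the treated groups of the lines overlapped. KRT7 fell in sensitive cells (log2 fold change -0.58 ± 0.081 SE, adjusted p 1.62e-05) and rose in resistant cells (0.36 ± 0.081, adjusted p 0.0104), and the responses differed by 0.94 ± 0.11, adjusted p 1.16e-05. KRT7 shares 282 exonic bases with the antisense gene KRT7-AS, whose reads cannot be told apart from it there without strand.

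KRT8, the type II partner of KRT18, and KRT18, its type I partner, lie side by side (ENSG00000170421, chr12:52897187-52949954, minus strand, and ENSG00000111057, chr12:52948871-52952901, plus strand). KRT8 read 2489, 2995 and 2329 CPM in DMSO and 1295, 1141 and 1295 with GNE-7883 in the sensitive line, against 1073, 1332 and 1034 in DMSO and 1339, 1100 and 1202 with GNE-7883 in the resistant line. KRT18 read 3619, 4414 and 3784 CPM in DMSO and 1769, 1885 and 1725 with GNE-7883 in the sensitive line, against 1656, 1913 and 1619 in DMSO and 1928, 1694 and 1953 with GNE-7883 in the resistant line. For both genes the sensitive DMSO libraries stood above all 9 others, and the other 3 groups overlapped. In sensitive cells KRT8 fell 2.09-fold (log2 fold change -1.07 ± 0.11 SE, adjusted p 3.28e-07) and KRT18 fell 2.2-fold (-1.14 ± 0.081, adjusted p 7.96e-09). Resistant cells gave 0.083 ± 0.10, adjusted p 0.718 for KRT8 and 0.10 ± 0.080, adjusted p 0.506 for KRT18, neither called. The line difference in DMSO was -1.18 and -1.19, and in GNE-7883 it was -0.035 and 0.052 on the log2 scale, the last pair not called. The ratio of KRT8 to KRT18 RPKM was 0.290 ± 0.0172 in DMSO and 0.305 ± 0.0346 with GNE-7883 in the sensitive line, and 0.290 ± 0.0136 and 0.286 ± 0.0174 in the resistant line, differences smaller than the SD of the sensitive GNE-7883 libraries. Their annotated exons share 525 bases on opposite strands (16.3% of KRT18 and 7.63% of KRT8), and the kit does not mark strand, so reads there cannot be assigned to one of them.

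KRT19, a small type I keratin of simple epithelia, had no called response to treatment. Sensitive means were 2402 ± 307 and 2238 ± 41.2 CPM (-0.10 ± 0.088, adjusted p 0.34) and resistant means 1278 ± 147 and 1491 ± 110 CPM (0.22 ± 0.088, adjusted p 0.14). Between the lines it was lower in resistant cells in DMSO (-0.91 ± 0.089, adjusted p 3.98e-07). Its difference of responses, 0.32 ± 0.12, adjusted p 0.0538, was not called, but passed in 7 alternative fits at adjusted p 3.30e-05 to 0.0408. These included relative log expression scaling in place of TMM, DESeq2's Wald test and no filter on low counts. The rest left out resistant DMSO replicate 2, resistant GNE-7883 replicate 2, or sensitive DMSO replicate 1 or 3. With no filter on low counts both responses were called as well, at -0.14, adjusted p 0.0406, in sensitive and 0.23, adjusted p 0.00157, in resistant cells. Without resistant DMSO replicate 2 the resistant response was called at 0.32, adjusted p 0.0245, and without sensitive DMSO replicate 2 at 0.23, adjusted p 0.0112.

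KRT4, a type II keratin of stratified mucosa, showed the largest fall of the tested members (ENSG00000170477, chr12:52806549-52814551, minus strand). KRT4 read 21.5, 22.4 and 21.5 CPM in DMSO and 2.14, 2.08 and 1.78 with GNE-7883 in the sensitive line, against 0.527, 0.628 and 0.675 in DMSO and 0.501, 0.579 and 0.519 with GNE-7883 in the resistant line. The sensitive groups stood apart from each other and from the resistant groups, which overlapped. KRT4 fell 10.9-fold in sensitive cells (log2 fold change -3.45 ± 0.10 SE, adjusted p 2.71e-13), and in resistant cells the value was -0.18 ± 0.18, adjusted p 0.726. Resistant cells held 35.8-fold less KRT4 than sensitive cells in DMSO (-5.16 ± 0.11, adjusted p 7.38e-15).

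KRT5, a type II keratin of basal cells that mesothelium also expresses, was the 1 of the 9 keratins tested here that was called higher in resistant cells (ENSG00000186081, chr12:52514575-52520687, minus strand). KRT5 read 76.2, 86.9 and 79.1 CPM in DMSO and 32.3, 28.6 and 31.9 with GNE-7883 in the sensitive line, against 102, 111 and 104 in DMSO and 125, 117 and 116 with GNE-7883 in the resistant line. No 2 of these 4 groups overlapped, and the treated sensitive libraries were the lowest. It fell in sensitive cells (log2 fold change -1.38 ± 0.068 SE, adjusted p 1.09e-10) and was higher in resistant cells in DMSO (0.39 ± 0.065, adjusted p 0.000127) and in GNE-7883 (1.94 ± 0.069, adjusted p 9.94e-13). The treated resistant value of 0.17 ± 0.065, adjusted p 0.119 was not called, but passed at 0.17, adjusted p 0.0173, without sensitive DMSO replicate 2. It also passed at 0.18, adjusted p 0.0322, with only the groups compared. KRT14, the usual type I partner of KRT5, had 85 counts in all 12 libraries together.

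KRT80 is a type II keratin of many epithelia (ENSG00000167767, chr12:52168996-52192000, minus strand). KRT80 read 325, 337 and 322 CPM in DMSO and 304, 291 and 304 with GNE-7883 in the sensitive line, against 94, 104 and 92.1 in DMSO and 125, 117 and 126 with GNE-7883 in the resistant line. Its resistant libraries all lay below the sensitive ones, and no 2 of the 4 groups overlapped. KRT80 was 3.38-fold lower in resistant DMSO (-1.76 ± 0.058, adjusted p 9.23e-13) and rose there with GNE-7883 (0.34 ± 0.057, adjusted p 0.00136). In sensitive cells it gave -0.13 ± 0.056, adjusted p 0.0601, not called, but passed without any 1 of the 6 resistant libraries and in 4 other fits, 10 in all. KRT15, a type I basal keratin, rose from 6.25 ± 0.489 to 8.81 ± 0.486 CPM in sensitive cells (0.50 ± 0.087, adjusted p 0.000146) and stood at 6.87 ± 0.24 and 6.41 ± 0.29 CPM in resistant cells. KRT17, a type I keratin of stressed and basal epithelium, was at 2.21 ± 0.597 CPM in sensitive and 0.76 ± 0.146 CPM in resistant DMSO (-1.54 ± 0.23, adjusted p 3.95e-05). Its sensitive response of 0.28 ± 0.19, adjusted p 0.223 was not called, but was 0.53, adjusted p 0.0201, without sensitive DMSO replicate 2. Keratins have close copies and pseudogenes, so counts of KRT8, KRT18, KRT17, KRT14, KRT6A and KRT81 are uncertain to that extent.

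**Figure D3:**
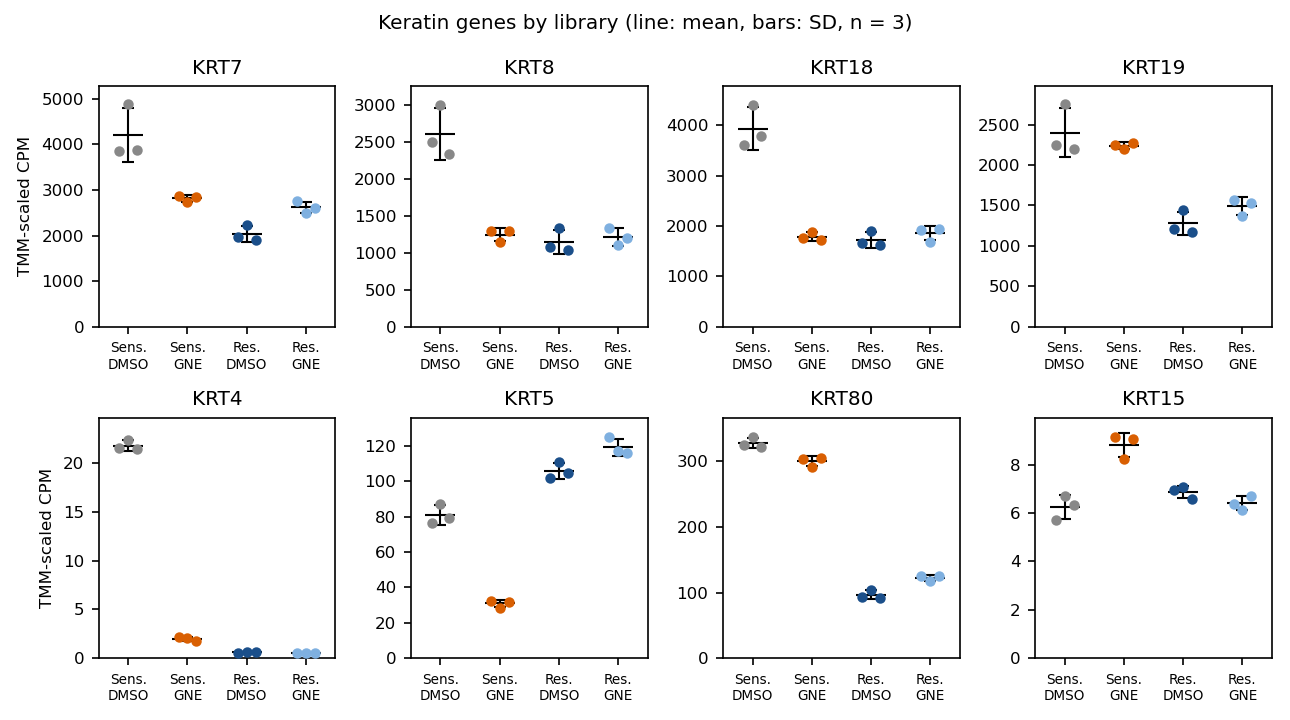
TMM-scaled CPM (vertical axes, each from 0) of 8 keratins in the 4 groups, with a point per library, a line at the mean and bars for the SD. The 3 sensitive DMSO libraries stand above the others for KRT7, KRT8, KRT18 and KRT4, while KRT5 is lowest in sensitive GNE-7883 libraries.

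Of the 11 tested tight junction genes, 4 rose and 5 fell in sensitive cells and 3 rose and none fell in resistant cells. All-gene shares were 29.8% risen and 28.4% fallen in sensitive cells, and 5.25% and 3.97% in resistant cells. CGN encodes cingulin, a cytoplasmic plaque protein (ENSG00000143375, chr1:151510510-151538692, plus strand). CGN read 100, 93 and 102 CPM in DMSO and 38.7, 38.1 and 38.3 with GNE-7883 in the sensitive line, against 12.6, 14.1 and 12.2 in DMSO and 16.5, 16.2 and 16 with GNE-7883 in the resistant line. All 4 groups were apart, with the resistant groups lowest and the treated resistant libraries above their DMSO controls. CGN fell 2.56-fold in sensitive cells (log2 fold change -1.36 ± 0.062 SE, adjusted p 4.28e-11) and rose 1.25-fold in resistant cells (0.32 ± 0.067, adjusted p 0.00603), a difference of 1.68 ± 0.091, adjusted p 2.88e-09. In DMSO it was 7.57-fold lower in resistant cells (-2.92 ± 0.067, adjusted p 1.11e-14).

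OCLN encodes occludin, a membrane protein of the tight junction strand (ENSG00000197822, chr5:69492292-69558104, plus strand). OCLN read 40.8, 30.6 and 42.3 CPM in DMSO and 17.9, 17.5 and 18.8 with GNE-7883 in the sensitive line, against 11.8, 10.4 and 11.3 in DMSO and 10, 10.1 and 10.6 with GNE-7883 in the resistant line. Sensitive DMSO replicate 2 was the lowest of its group but stayed above all treated libraries, and the 2 resistant groups overlapped. OCLN fell in sensitive cells (log2 fold change -1.07 ± 0.10 SE, adjusted p 1.89e-07, and -1.21 without that replicate), was lower in resistant DMSO (-1.76 ± 0.10, adjusted p 9.55e-10) and gave -0.13 ± 0.11, adjusted p 0.55 in resistant cells. MARVELD2 (tricellulin, at corners where cells meet) fell from 20.5 ± 2.79 to 13.7 ± 0.273 CPM in sensitive cells (-0.58 ± 0.091, adjusted p 5.17e-05) and stood at 10.4 ± 0.715 and 10.5 ± 0.263 CPM in resistant cells.

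Claudins, the sealing and pore proteins of the strand, moved in both directions. CLDN1 is a sealing claudin (ENSG00000163347, chr3:190305701-190322475, minus strand). CLDN1 read 37.4, 34.9 and 36.7 CPM in DMSO and 81.3, 88.3 and 83.8 with GNE-7883 in the sensitive line, against 48.1, 42.3 and 47.2 in DMSO and 41.9, 43.1 and 41.1 with GNE-7883 in the resistant line. The 3 treated sensitive libraries were the highest of the 12, without overlap. CLDN1 rose 2.33-fold in sensitive cells (log2 fold change 1.22 ± 0.063 SE, adjusted p 1.71e-10) and gave -0.13 ± 0.062, adjusted p 0.256 in resistant cells, a difference of -1.34 ± 0.088, adjusted p 1.87e-08.

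CLDN11 is a claudin known best from myelin and the testis (ENSG00000013297, chr3:170418865-170454733, plus strand). CLDN11 read 36.5, 40.8 and 37.2 CPM in DMSO and 17.3, 15.4 and 16.7 with GNE-7883 in the sensitive line, against 1.54, 2.19 and 2.12 in DMSO and 1.34, 1.62 and 1.75 with GNE-7883 in the resistant line. The resistant groups, with 2.19 CPM as their highest value, overlapped each other and lay far below the sensitive groups. CLDN11 fell 2.32-fold in sensitive cells (log2 fold change -1.21 ± 0.092 SE, adjusted p 1.56e-08) and was 19.7-fold lower in resistant than in sensitive cells in DMSO (-4.30 ± 0.12, adjusted p 9.75e-14).

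CLDN15 forms cation pores (ENSG00000106404, chr7:101232092-101238820, minus strand). CLDN15 read 89.4, 96.9 and 83.9 CPM in DMSO and 128, 116 and 129 with GNE-7883 in the sensitive line, against 39.1, 44.5 and 37.4 in DMSO and 54.4, 49.5 and 52.6 with GNE-7883 in the resistant line. In both lines the treated libraries lay above the DMSO libraries without overlap. It rose in sensitive (log2 fold change 0.47 ± 0.074 SE, adjusted p 5.56e-05) and in resistant cells (0.37 ± 0.076, adjusted p 0.00578), and the difference of -0.10 ± 0.11, adjusted p 0.517 was not called. CLDN12 rose in sensitive cells (0.53 ± 0.077, adjusted p 2.51e-05) and gave 0.014 ± 0.076, adjusted p 0.948 in resistant cells. CLDN4, at 1.26 ± 0.128 CPM in sensitive and 1.76 ± 0.333 CPM in resistant DMSO, had no called response to treatment. Its call as higher in resistant DMSO (0.47 ± 0.17, adjusted p 0.0338) was lost without sensitive DMSO replicate 1 or 3 or resistant DMSO replicate 2 or 3, and in 3 other fits, at adjusted p 0.0524 to 0.180. CLDN12 shares 201 exonic bases with CDK14 and 347 with GTPBP10, which these counts may split.

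TJP3 (ZO-3) and TJP1 (ZO-1) are plaque scaffolds that tie the strand to actin (ENSG00000105289, chr19:3708109-3750813, plus strand for TJP3). TJP3 read 7.83, 9.25 and 7.09 CPM in DMSO and 16.1, 12.3 and 17.1 with GNE-7883 in the sensitive line, against 1.19, 1.62 and 1.56 in DMSO and 2.05, 2.25 and 1.88 with GNE-7883 in the resistant line. The resistant libraries were all below the sensitive ones, and treated libraries were above their DMSO controls in both lines. TJP3 rose in sensitive cells (log2 fold change 0.91 ± 0.13 SE, adjusted p 1.64e-05), and the resistant value of 0.50 ± 0.19, adjusted p 0.122 was not called. The resistant value passed with no filter on low counts (0.51, adjusted p 0.0346) and with only the groups compared (0.51, adjusted p 0.0497). In DMSO the resistant line was 5.54-fold lower (-2.47 ± 0.16, adjusted p 4.25e-09). TJP1 gave -0.29 ± 0.095, adjusted p 0.0148 in sensitive cells, a call lost in 4 alternative fits at adjusted p 0.0532 to 0.0754, among them those without sensitive DMSO replicate 1 or 3 or sensitive GNE-7883 replicate 3. F11R (JAM-A, an immunoglobulin-type adhesion protein) rose in resistant cells (0.25 ± 0.052, adjusted p 0.00632), a call lost without resistant GNE-7883 replicate 3 (adjusted p 0.0508), and gave 0.059 ± 0.052, adjusted p 0.35 in sensitive cells. F11R shares 1853 exonic bases, 36.6% of its own, with AL591806.3 on the same strand (46 counts in all). How reads in those bases were assigned is not stated.

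**Figure D4:**
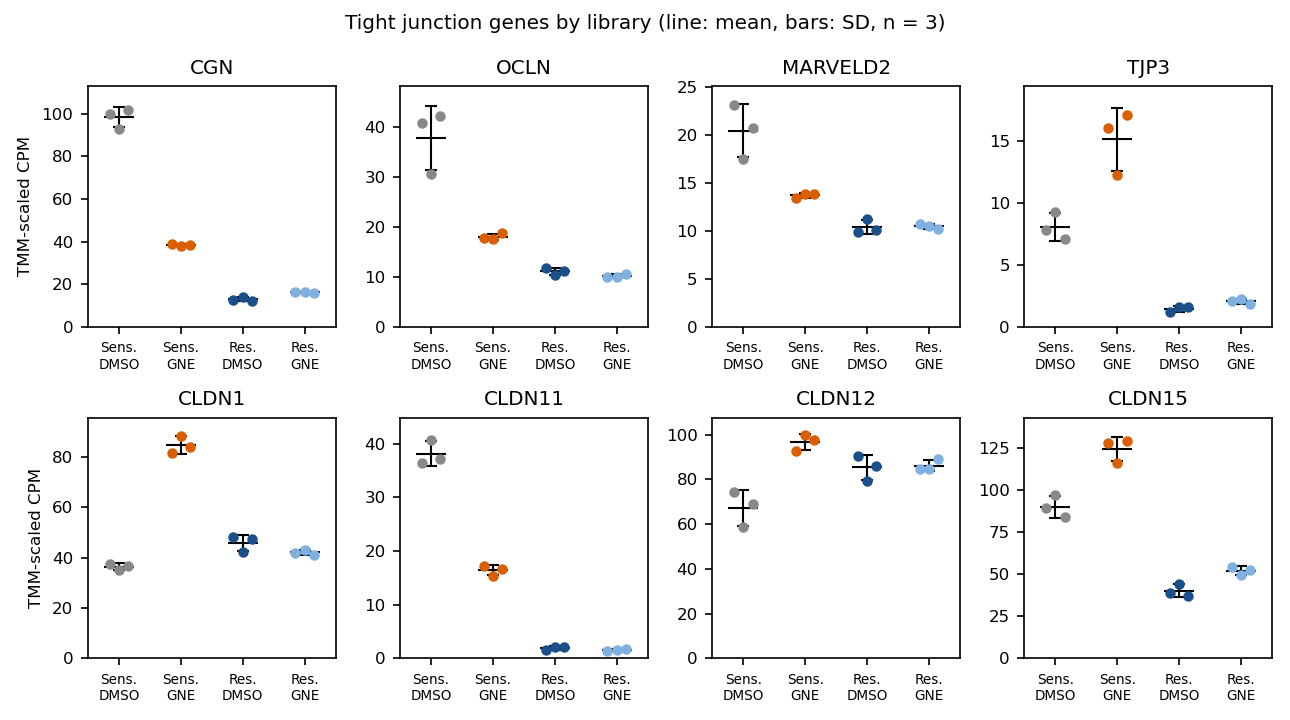
TMM-scaled CPM (vertical axes, each from 0) of 8 tight junction genes in the 4 groups, with a point per library, a line at the mean and bars for the SD. CGN, OCLN, MARVELD2 and CLDN11 are highest in sensitive DMSO, and CLDN1, TJP3 and CLDN15 are highest in sensitive GNE-7883 libraries.

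Of the 5 tested adherens junction genes, 1 rose and 3 fell in sensitive cells, beside 29.8% and 28.4% of all tested genes. E-cadherin, encoded by CDH1 (ENSG00000039068, chr16:68737225-68835548, plus strand), is the cadherin that defines most epithelia, and its level was low throughout. CDH1 read 4.16, 2.64 and 3.89 CPM in DMSO and 0.529, 0.634 and 0.557 with GNE-7883 in the sensitive line, against 0.321, 0.0866 and 0.276 in DMSO and 0.188, 0.162 and 0.136 with GNE-7883 in the resistant line. All sensitive DMSO libraries were above the treated ones, which were in turn above all resistant libraries. On the RPKM scale CDH1 ranked 34 among the 36 tested genes in sensitive DMSO, at 0.697 ± 0.155, and was the lowest of them in the other 3 groups. It fell 6.2-fold in sensitive cells (log2 fold change -2.63 ± 0.24 SE, adjusted p 1.65e-07), was 15.9-fold lower in resistant DMSO (-3.99 ± 0.28, adjusted p 9.60e-09) and gave -0.42 ± 0.49, adjusted p 0.686 in resistant cells. CDH3 (P-cadherin), at 20.8 ± 0.539 CPM in sensitive DMSO, fell in sensitive (-0.30 ± 0.080, adjusted p 0.00474) and rose in resistant cells (0.32 ± 0.082, adjusted p 0.0238). The latter call was lost without resistant DMSO replicate 1 or 3 or resistant GNE-7883 replicate 1 or 3, at adjusted p 0.0674 to 0.102.

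The catenins are partners of the cadherins at the adherens junction. CTNNB1 (beta-catenin) was at 601 ± 11.5 and 583 ± 16.6 CPM in sensitive and at 481 ± 11.8 and 494 ± 14 CPM in resistant cells, with no called response in either line. CTNNA1 (alpha-catenin) fell in sensitive cells (-0.19 ± 0.043, adjusted p 0.00133), while CTNND1 (p120-catenin) rose (0.34 ± 0.063, adjusted p 0.000234). Each of the 3 was lower in resistant DMSO, at log2 fold changes of -0.32, -0.13 and -0.37 in that order. The CTNNA1 call was lost without resistant DMSO replicate 1 or 2 or sensitive DMSO replicate 1 or 3, and in 2 other fits, at adjusted p 0.0510 to 0.105.

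Of the 10 tested desmosome and plaque genes, 2 rose and 4 fell in sensitive cells, and 2 rose and 1 fell in resistant cells. All-gene shares were 29.8% risen and 28.4% fallen in sensitive cells, and 5.25% and 3.97% in resistant cells. JUP encodes plakoglobin, which binds the desmosomal cadherins (ENSG00000173801, chr17:41754604-41786931, minus strand). JUP read 107, 125 and 104 CPM in DMSO and 214, 215 and 219 with GNE-7883 in the sensitive line, against 51.5, 59.3 and 48.9 in DMSO and 85, 76.4 and 78.7 with GNE-7883 in the resistant line. Treated libraries lay above their DMSO controls in both lines, and the 4 groups did not overlap. JUP rose in sensitive (log2 fold change 0.95 ± 0.078 SE, adjusted p 4.20e-08) and in resistant cells (0.59 ± 0.080, adjusted p 0.000198). The difference of -0.36 ± 0.11, adjusted p 0.0187 was called, and was lost without resistant DMSO replicate 2, resistant GNE-7883 replicate 2 or resistant GNE-7883 replicate 3, at adjusted p 0.0599 to 0.0737.

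DSC2 and DSC3 encode desmocollins, and DSG2 a desmoglein, the cadherins of the desmosome (ENSG00000134762, chr18:30990008-31042815, minus strand for DSC3, and ENSG00000134755, chr18:31058840-31102522, minus strand for DSC2). DSC3 read 304, 209 and 315 CPM in DMSO and 484, 470 and 466 with GNE-7883 in the sensitive line, against 189, 184 and 204 in DMSO and 186, 198 and 196 with GNE-7883 in the resistant line. DSC2 read 6.64, 5.76 and 6.35 CPM in DMSO and 6.37, 6.25 and 7.32 with GNE-7883 in the sensitive line, against 1.63, 1.95 and 2.24 in DMSO and 2.13, 1.76 and 2.05 with GNE-7883 in the resistant line. The treated sensitive libraries were highest for DSC3, while for DSC2 the lines were apart and the treatments overlapped. DSC3 rose in sensitive cells (log2 fold change 0.78 ± 0.11 SE, adjusted p 1.35e-05, and 0.61 without sensitive DMSO replicate 2) and gave 0.0057 ± 0.11, adjusted p 0.987 in resistant cells. DSC2 was lower in resistant cells in DMSO (-1.70 ± 0.13, adjusted p 1.70e-08) and in GNE-7883 (-1.75 ± 0.13, adjusted p 5.64e-09). DSG2 had group means from 280 ± 6.28 to 305 ± 18.6 CPM and was called in none of the 5 comparisons, although without sensitive DMSO replicate 2 its sensitive response was -0.14, adjusted p 0.0210.

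All 3 tested plakophilins, the armadillo-repeat plaque proteins, fell in sensitive cells: PKP2 from 393 ± 19.7 to 204 ± 6.19 CPM (-0.94 ± 0.050, adjusted p 2.63e-10), PKP3 from 62.4 ± 7.49 to 35.7 ± 2.46 CPM (-0.81 ± 0.11, adjusted p 8.01e-06) and PKP4 from 191 ± 15.4 to 113 ± 0.619 CPM (-0.76 ± 0.058, adjusted p 1.95e-08). In resistant cells PKP2 stood at 197 ± 1.55 and 206 ± 2.04 CPM and PKP3 at 51 ± 7.13 and 56.8 ± 5.61 CPM. PKP4 fell there (-0.24 ± 0.058, adjusted p 0.0155), the single fall of a member in resistant cells, and this call was lost without resistant DMSO replicate 1 or 3 or any 1 of the resistant GNE-7883 libraries, at adjusted p 0.0715 to 0.109. PKP3 was lower in resistant DMSO (-0.29 ± 0.10, adjusted p 0.0304), but not called without sensitive DMSO replicate 2 (-0.18, adjusted p 0.0977), without resistant DMSO replicate 1 or 3, or with only the 2 groups compared.

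The plakins link the plaque to keratin filaments. PPL encodes periplakin (ENSG00000118898, chr16:4882507-4960741, minus strand). PPL read 297, 277 and 306 CPM in DMSO and 234, 211 and 223 with GNE-7883 in the sensitive line, against 48.1, 53.7 and 47.7 in DMSO and 79.5, 68.4 and 76.1 with GNE-7883 in the resistant line. The 4 groups were apart, with both resistant groups below both sensitive ones. PPL fell in sensitive (log2 fold change -0.40 ± 0.068 SE, adjusted p 0.000116) and rose in resistant cells (0.58 ± 0.071, adjusted p 7.47e-05), a difference of 0.98 ± 0.10, adjusted p 1.46e-06. In DMSO it was 5.88-fold lower in resistant cells (-2.56 ± 0.073, adjusted p 1.98e-13). DSP (desmoplakin) had no called response, at 0.077 ± 0.13, adjusted p 0.645 in sensitive cells. Its line difference in DMSO was -0.33 ± 0.13, adjusted p 0.0506, and was called at -0.52, adjusted p 6.91e-06, without sensitive DMSO replicate 2. EVPL (envoplakin) was lower in resistant DMSO (-0.83 ± 0.13, adjusted p 4.48e-05), and its sensitive response of -0.29 ± 0.12, adjusted p 0.0511 was not called, but passed without any 1 of the 6 resistant libraries, sensitive DMSO replicate 1 or sensitive GNE-7883 replicate 3, and in 5 other fits, 13 in all.

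Of the 4 regulators, ESRP2 alone was tested; it encodes a splicing factor of epithelial transcripts (ENSG00000103067, chr16:68229111-68238102, minus strand). ESRP2 read 62.9, 59.7 and 63.1 CPM in DMSO and 26.3, 23 and 24.6 with GNE-7883 in the sensitive line, against 38.4, 38 and 37 in DMSO and 37.5, 32.7 and 35.2 with GNE-7883 in the resistant line. The treated sensitive libraries were the lowest and the sensitive DMSO libraries the highest, and the 2 resistant groups overlapped. ESRP2 fell 2.51-fold in sensitive cells (log2 fold change -1.33 ± 0.067 SE, adjusted p 1.38e-10), gave -0.11 ± 0.066, adjusted p 0.381 in resistant cells, and differed in response by 1.22 ± 0.094, adjusted p 8.66e-08. It was lower in resistant cells in DMSO (-0.71 ± 0.065, adjusted p 1.96e-07) and higher in GNE-7883 (0.51 ± 0.067, adjusted p 6.40e-06).

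**Figure D5:**
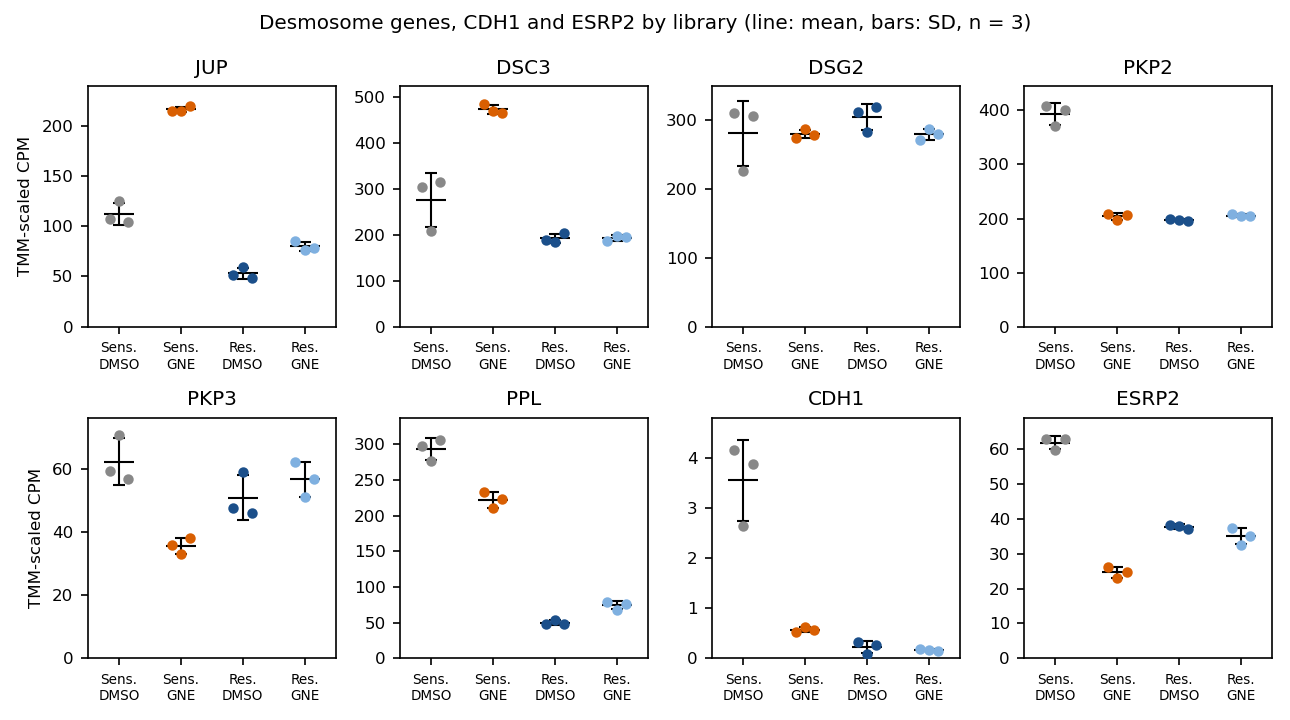
TMM-scaled CPM (vertical axes, each from 0) of 6 desmosome genes, CDH1 and ESRP2 in the 4 groups, with a point per library, a line at the mean and bars for the SD. JUP and DSC3 are highest in sensitive GNE-7883, and PKP2, PKP3, PPL, CDH1 and ESRP2 are highest on average in sensitive DMSO libraries.

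Of 103 other tested genes of the same structures, in 8 lists (other keratins, claudins, tight junction and polarity, adherens, desmosome and hemidesmosome, gap junction, cornified envelope, and epithelial regulators), 31 rose and 32 fell in sensitive cells and 12 rose and 4 fell in resistant cells, with medians of -0.0057 and 0.08 on the log2 scale. Of all tested genes, 29.8% rose and 28.4% fell in sensitive cells and 5.25% rose and 3.97% fell in resistant cells. In DMSO, 23 of them were higher and 36 lower in resistant cells, and in GNE-7883, 33 were higher and 39 lower, beside all-gene shares of 24.2% and 24.4% in DMSO and 30.7% and 31.1% in GNE-7883. Their responses were more positive in resistant cells for 27 and more negative for 17, beside 19% and 16.7% of all tested genes.

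The paralog of cingulin, CGNL1, rose where CGN fell, from 9.54 ± 0.938 to 60.3 ± 1.38 CPM in sensitive cells (2.66 ± 0.093, adjusted p 2.60e-12). PARD6B, a polarity protein, also rose there (1.02 ± 0.067, adjusted p 3.19e-09). Among 22 tested adherens junction genes, 5 rose and 11 fell in sensitive cells, beside 29.8% and 28.4% of all tested genes. CDH2, the N-cadherin of mesothelial and mesenchymal cells, rose from 552 ± 48.8 to 932 ± 28.2 CPM (0.76 ± 0.060, adjusted p 2.60e-08), and CDH11 rose from 641 ± 70.8 to 1269 ± 23.5 CPM (0.98 ± 0.066, adjusted p 3.58e-09). PLEKHA7, a p120-catenin partner, fell from 52.3 ± 3.45 to 16.1 ± 1.81 CPM (-1.70 ± 0.084, adjusted p 1.15e-10), while CDH6 gave -1.20 ± 0.082, adjusted p 5.14e-09. In resistant cells CDH2 gave 0.17 ± 0.060, adjusted p 0.0912 and PLEKHA7 0.095 ± 0.078, adjusted p 0.539, neither called.

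Of 11 tested gap junction genes, 2 rose and 5 fell in sensitive cells, beside 29.8% and 28.4% of all tested genes. The connexin gene GJA5 fell from 78.5 ± 2.72 to 13.1 ± 0.797 CPM (-2.58 ± 0.064, adjusted p 8.60e-14), whereas GJB2 rose (1.16 ± 0.10, adjusted p 4.11e-08). Among cornified envelope genes, the crosslinking enzyme TGM1 fell from 231 ± 8.21 to 63.2 ± 2.71 CPM in sensitive cells and stood at 8.68 ± 1.15 CPM in resistant DMSO (-4.73 ± 0.088, adjusted p 1.68e-15). Its substrate IVL (involucrin) was higher in resistant DMSO, at 18.2 ± 0.925 against 1.57 ± 0.0493 CPM (3.54 ± 0.093, adjusted p 6.57e-14). ITGB4, the integrin chain of hemidesmosomes, was lower in resistant DMSO (-1.34 ± 0.088, adjusted p 3.64e-09).

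Markers of some other cell states differed between the lines. Beside the counts that follow, 24.2% of all tested genes were higher and 24.4% lower in resistant DMSO. With GNE-7883 in sensitive cells, 29.8% of all tested genes rose and 28.4% fell. All 12 mesenchymal markers were tested, and 7 were higher and 2 lower in resistant DMSO, with a summed level of 3322 to 3453 against 2179 to 2309 CPM in sensitive DMSO. VIM (vimentin) alone went from 848 ± 89.1 to 2064 ± 38.4 CPM, more than the difference between the mean sums. On the log2 scale VIM was higher by 1.28 (adjusted p 2.59e-10) and SNAI2, an E-box-binding repressor, by 3.64 (adjusted p 2.33e-13). The 2 lower markers were SNAI1, also an E-box-binding repressor, at -0.98 (adjusted p 4.24e-05) and COL1A1, a collagen chain, at -0.78 (adjusted p 1.29e-06). VIM, SNAI2, SNAI1 and ZEB1 were chosen after their values were seen. ZEB1 gave 0.26 (adjusted p 0.0941), not called. With GNE-7883, 4 mesenchymal markers rose and 3 fell in sensitive cells, with a summed level of 2133 to 2218 CPM. Of the 12 mesothelial markers, which include KRT5 and KRT7, 1 was higher and 10 were lower in resistant DMSO, and 8 rose and 4 fell with GNE-7883 in sensitive cells. Of 6 endothelial markers 5 were tested, and 2 rose and 2 fell with GNE-7883 in sensitive cells, with a summed level of 86.8 to 97.1 CPM in sensitive DMSO and 198.6 to 213.5 CPM in sensitive GNE-7883, most of it from KDR (54.5 ± 7.23 and 185 ± 8.19 CPM). In resistant DMSO 1 endothelial marker was higher and 2 were lower, and the summed level of 83.1 to 91.8 CPM overlapped that of sensitive DMSO. Of 7 squamous markers, KRT5 among them, 3 were tested, with a summed level of 78.1 to 89.0 CPM in sensitive and 120.7 to 130.3 CPM in resistant DMSO. Most of both sums was KRT5, itself one of the keratins described here (80.7 ± 5.54 and 106 ± 4.46 CPM). IVL stood at 1.57 ± 0.0493 and 18.2 ± 0.925 CPM. SOX2, the remaining tested one, lay at 0.0603 ± 0.0556 CPM in sensitive DMSO and gave -4.27 (adjusted p 0.0531), not called. TP63, a defining squamous marker, had 57 counts in all. The part of these markers in the keratin and junction values was not tested. In bulk RNA, fewer cells of a type and less RNA per cell cannot be told apart.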

How the data were processed

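RNA was sequenced from 12 cell line libraries, 4 groups of 3, with a kit that does not mark strand. The authors deposited whole-number read counts per Ensembl gene (58302 genes) and an RPKM table of the same libraries. The RPKM values were checked to be those counts scaled by library total and a fixed factor per gene. This held over 12122 genes, within a relative deviation of 9.5e-09. That the factor per gene is its length follows from the name of the scale and was not checked. Per the submitters' processing notes, GSNAP, limma and GRCh38.p10 were used, with no role stated. The sources used here state no counting tool, annotation release or strand setting.

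Counts were fitted with edgeR (version 4.0.16, R 4.3.3) after TMM scaling and filtering by filterByExpr with the group as factor (18035 genes). Quasi-likelihood F tests used a model with a mean for each group, which left 8 residual degrees of freedom. Tests were two-sided, with Benjamini-Hochberg adjustment over all tested genes in each comparison and a threshold of 0.05. Treated cells were compared with DMSO in each line, and the lines with each other in DMSO and in GNE-7883. The 5th comparison subtracted the sensitive from the resistant response. SE is the log2 fold change divided by the square root of F. Symbols came from a gene name table (57532 identifiers matched) and coordinates from GENCODE release 29 on GRCh38. Promoter windows came from RefSeq on GRCh38.p14.

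Alternatives were edgeR's relative log expression scaling in place of TMM, with the same test, DESeq2's Wald test (version 1.42.0) and limma-voom (limma 3.58.1). Others were no filter on low counts, a filter of 5 CPM, only the groups compared, the replicate number as a block, and leaving out each library. The main edgeR fit, and none of the alternatives, was tested on simulated data. Those data had the same spread setting for every gene and no outlying library. Total counts ran from 31878934 to 46962645 per library. Floors at low counts reflect counting error alone. Whether libraries came from separate cultures is not stated, and p-values therefore measure only the spread between these samples, possibly technical.

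Values in all 12 libraries are printed for tested members that reached 5 CPM in a group and were called with an absolute log2 fold change of at least 1 in a 2-group comparison, and for CDH1. From the other lists, genes called in the difference of responses with the 2 largest positive and 2 largest negative values, at 5 CPM or more, could be named. The members and lists were chosen with earlier results of these data known.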

Additional observations from a re-analysis of the deposited data

Results flagged for a closer look

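The response to GNE-7883 differed between the lines for 23 of the 36 tested genes, by the edgeR quasi-likelihood test of the difference itself with Benjamini-Hochberg adjustment, and each value here is the resistant minus the sensitive response on the log2 scale. Among keratins, the differences were 3.26 for KRT4, 1.55 for KRT5, 1.24 for KRT18, 1.15 for KRT8, 0.94 for KRT7 and 0.47 for KRT80, and -0.60 for KRT15. Each of the 6 positive ones went with a negative sensitive value, from -3.45 to -0.13.

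Among tight junction genes, the difference was 1.68 for CGN, 0.94 for OCLN, 0.89 for CLDN11 and 0.59 for MARVELD2, and it was -1.34 for CLDN1 and -0.51 for CLDN12. Among adherens junction genes it was 2.21 ± 0.58 SE for CDH1, 0.62 for CDH3 and 0.21 for CTNNA1. CDH1 counts were low in resistant cells, where its response ran from -0.86 to -0.0092 with 1 library left out. The CDH1 difference then ran from 1.80 to 2.66. Desmosome genes gave 1.0 for PKP2, 0.98 for PPL, 0.96 for PKP3 and 0.51 for PKP4, and -0.77 for DSC3 and -0.36 for JUP. The splicing factor ESRP2 gave 1.22.

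Among the genes with differing responses, KRT7, CDH3, CGN and PPL were called in both lines in opposite directions, while JUP was called higher and PKP4 lower in both. CLDN15, whose responses were not called different, was also called higher in both lines. The resistant calls of CDH3 and PKP4 were lost in several fits with a library left out. Sensitive libraries enter both the response and its difference, so these values are not independent of the sensitive responses.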

How the results depend on the processing

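Of 118 calls on the 36 tested genes over the 5 comparisons, 9 were lost in at least 1 alternative fit, and none reversed its direction. Of 62 results not called, 19 passed in some fit. The counts of risen and fallen genes stayed within 1.5 times in every fit, except for the falls in resistant cells, 1 in the report and 0 to 2 with a library left out. Over all genes, the resistant response gave 947 risen and 716 fallen genes, but 549 to 1649 and 304 to 1411 with a library left out, the highest without sensitive DMSO replicate 2, and 1131 fallen with only the groups compared.

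The replicate numbers did not pair the libraries as a whole (correlations of deviations from -0.12 to 0.18, 1 of 18 over 0.1). The highest was between replicate 2 of sensitive DMSO and replicate 2 of resistant DMSO. Whether these 2 libraries share a source of deviation was not tested. With the replicate block, no call was lost and 1 was gained, DSP between the lines in DMSO (-0.32, adjusted p 0.0371).

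Signs reversed only for results that were not called, on the log2 scale. DSG2 in sensitive cells gave 0.0166 at the 5 CPM filter, 0.0091 with voom and 0.0026 with the block. Between the lines in GNE-7883, DSG2 gave 0.0069 with relative log expression scaling or DESeq2's Wald test, 0.0429 with no filter and 0.0062 with only the groups compared. Between the lines in GNE-7883, KRT8 gave 0.0088 with no filter and PKP2 -0.0105 at 5 CPM, and the DSC2 difference of responses gave 0.0027 with no filter. With 1 library left out, sensitive responses ran from -0.14 to 0.071 for DSG2, -0.11 to 0.25 for DSP and -0.17 to 0.0049 for KRT19. Resistant responses ran from -0.035 to 0.065 for CLDN12, -0.035 to 0.25 for CLDN4, -0.0061 to 0.040 for CTNNA1, -0.063 to 0.16 for DSC2, -0.024 to 0.060 for DSC3, -0.095 to 0.028 for DSP, -0.056 to 0.20 for EVPL and -0.017 to 0.072 for MARVELD2. Line differences ran from -0.013 to 0.20 for DSG2 in DMSO, and in GNE-7883 from -0.0075 to 0.058 for DSG2, -0.090 to 0.056 for KRT8 and -0.014 to 0.044 for PKP2. Differences of responses ran from -0.15 to 0.014 for CLDN15, -0.12 to 0.098 for DSC2, -0.19 to 0.023 for DSG2 and -0.30 to 0.062 for DSP. The cause was not tested. Depth limits the 11 untested genes and CDH1 in resistant cells.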
